A study of Mus musculus with 12 samples.

Results

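The genes described here are 10 genes of hepatic insulin signalling and its FOXO and 4E-BP arms, namely the insulin receptor (Insr), the docking proteins Irs1 and Irs2, the kinases Akt1 and Akt2, the transcription factors Foxo1 and Foxo3, and the translation inhibitors Eif4ebp1, Eif4ebp2 and Eif4ebp3. They were chosen by name, with earlier results of these data known, and every probe whose RefSeq record belongs to one of them was taken. This gave 16 probes out of 39429 on the array, where 20017 genes have a named probe. The probe of a gene with the brightest mean log2 signal stands for the gene, and further probes of it are described with it.

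The RNA came from livers of male db/db mice, 8 weeks old, which lack a functional leptin receptor and become obese, hyperinsulinaemic and diabetic. All groups, controls included, carry this mutation, so no comparison with a lean or insulin-sensitive liver was made. One set of mice received MgH2, which releases H2 when it meets water, by stomach gavage once a day for 1, 3 or 7 days. The labels give its dose as 0.9 mg/kg, while the methods name other doses. A figure legend of the paper also gives 0.9 mg/kg MgH2, for plasma triglycerides of db/db mice over 1, 3 and 7 days. The controls of MgH2 received Mg(OH)2, per the methods. The other set drank H2-water with 0.8 mM H2 for 14 days, against degassed water. Each two-color array compared a treated pool of liver RNA (Cy5) with a control pool (Cy3), each pool made from 3 mice per the methods. There were 3 arrays per group and 12 in all. Dyes were never swapped, so that a treatment effect and a dye effect of a probe cannot be told apart within a group. Route and duration also changed together between 7 and 14 days, as did the slide and the version of the image software, and these cannot be told apart either.

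Insulin binds its receptor, which phosphorylates the docking proteins Irs1 and Irs2. These recruit PI3-kinase, and its lipid product activates Akt. Akt phosphorylates Foxo1 and Foxo3 and keeps them out of the nucleus, where they would otherwise switch on genes of gluconeogenesis and of the fasting response. Akt also relieves the block on mTORC1, which phosphorylates the 4E-BP proteins so that they release the cap-binding factor eIF4E. Most of this control is exerted on protein phosphorylation, which arrays do not measure. The transcripts are themselves regulated too, and Irs2 is a textbook FOXO target in liver.

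The control pools of the MgH2 arrays were not independent between days. The level of a probe is its log2 signal minus the 75th percentile of its channel. For each pair of arrays from 1, 3 and 7 days, the spread of the level differences over the 18474 probes above background on all arrays was taken as the median absolute deviation, scaled to an SD. In the control channel it ran from 0.0814 to 0.111 for the 9 pairs with the same replicate number on different days, and from 0.138 to 0.205 for the 27 other pairs. In the treated channel the ranges were 0.131 to 0.249 and 0.118 to 0.268. The control pools of one number, labelled as controls of different days, were therefore closer to each other than any control pools of different numbers, on the same slide or not. The methods do not state whether one control pool was hybridized at all 3 days. The study's quantitative PCR, run on RNA of the array samples, set its time points against a common day 0 group. Values of 1, 3 and 7 days are given side by side below, and likeness between these days is not counted as repetition. Spots above background made up 51.9% to 56.5% of each array, and no spot was saturated. The hepatocyte markers, 8 of 8, were above background on all arrays. Of 9 Kupffer cell and leukocyte markers 8 were. Their summed level ran, on the linear scale, from 30.6 to 36.6 in the control and from 23.7 to 27.1 in the treated pools of 3 and 7 days.

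**Figure D1:**
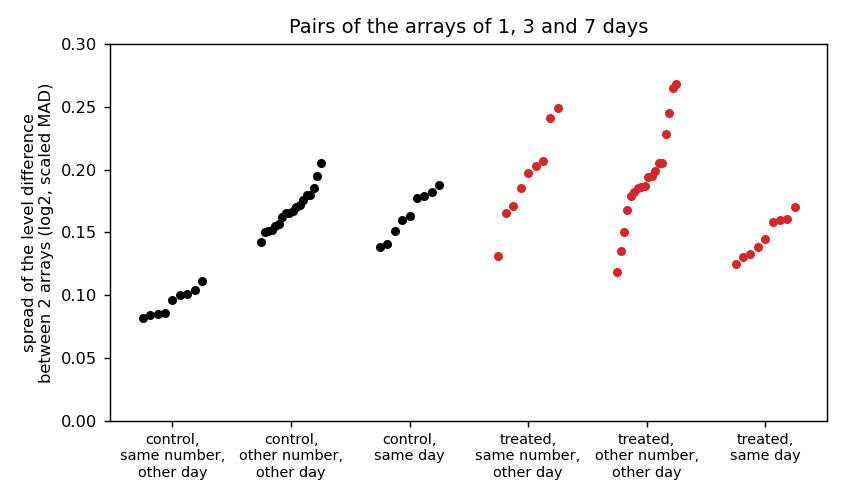
Spread of the level difference between 2 arrays (y axis, log2 scale, scaled median absolute deviation) for all pairs among the arrays of 1, 3 and 7 days, in the control channel (black) and the treated channel (red). The 9 control pairs with the same number on different days lie between 0.0814 and 0.111, below all 27 other control pairs, whereas the treated pairs of the same number lie among the others.

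Foxo1 shows this likeness of the control pools plainly. Its control levels were 2.29, 2.58 and 2.68 at 1 day for replicates 1, 2 and 3, then 2.29, 2.53 and 2.68 at 3 days and 2.37, 2.60 and 2.74 at 7 days. The control pool numbered 1 was thus the lowest on every day.

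Promoter letters are shown first for the docking proteins, the only members searched whose windows hold the heptamer CAAAACA. This heptamer is the core of the insulin response sequence that FOXO factors bind. A pair of textbook FOXO targets with the same letters follows. Sequences come from the RefSeq promoter table on build GRCm38.p6, in which 7 of the 10 genes have an entry. Insr, Eif4ebp1 and Eif4ebp3 have none and were not searched. The 250 bases upstream of each start were searched for CAAAACA on both strands. Each stretch below keeps 15 bases on either side of the match or matches, which are in capitals and read TGTTTTG where the heptamer lies on the other strand. It reads 5′ to 3′ along the gene.
Irs1, chr1:82291450-82291565, minus strand: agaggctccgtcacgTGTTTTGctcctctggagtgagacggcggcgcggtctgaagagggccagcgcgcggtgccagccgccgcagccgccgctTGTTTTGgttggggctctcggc
Irs2, chr8:11008945-11008981, minus strand: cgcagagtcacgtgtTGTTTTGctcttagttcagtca
Igfbp1, chr11:7197664-7197700, plus strand: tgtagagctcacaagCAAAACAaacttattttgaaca
G6pc, chr11:101367527-101367563, plus strand: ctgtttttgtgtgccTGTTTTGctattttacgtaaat
Irs1 held 2 matches, which begin 111 and 32 bases upstream of the start, and Irs2 held 1, at 37 bases. Of all genes in the table, 6.38% hold the heptamer, against 2 of 7 members and 3 of 26 genes of the list of FOXO targets described below. The related letters GTAAACA, the core of the FOXO family consensus, were searched on both strands as well. They lay upstream of Akt1 alone among the members searched, and upstream of 3.54% of all genes. A match is a run of letters and not evidence of binding.

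Of the 10 genes, 9 could be tested, and 3 passed at 1 day, 2 at 3 days, 3 at 7 days and 1 at 14 days in limma, at a Benjamini-Hochberg adjusted P under 0.05 over all probes tested. Over all probes, 9.38% passed at 1 day, 23.4% at 3 days, 29.5% at 7 days and 8.86% at 14 days. The shares of the members, 3 or fewer of 9, were those of a handful of genes and are not read as a difference from these percentages. The gene that stood out in size was Eif4ebp3, which was higher at 1, 3 and 7 days of MgH2 and lower at 14 days of H2-water. Irs1 was higher at the 3 MgH2 times by its brighter probe. Akt2 passed at 1 day and Eif4ebp2 at 7 days, both with small changes. Insr, Irs2, Akt1, Foxo1 and Eif4ebp1 passed at none of the 4 times, and Foxo3 was too dim to test.

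**Figure D2:**
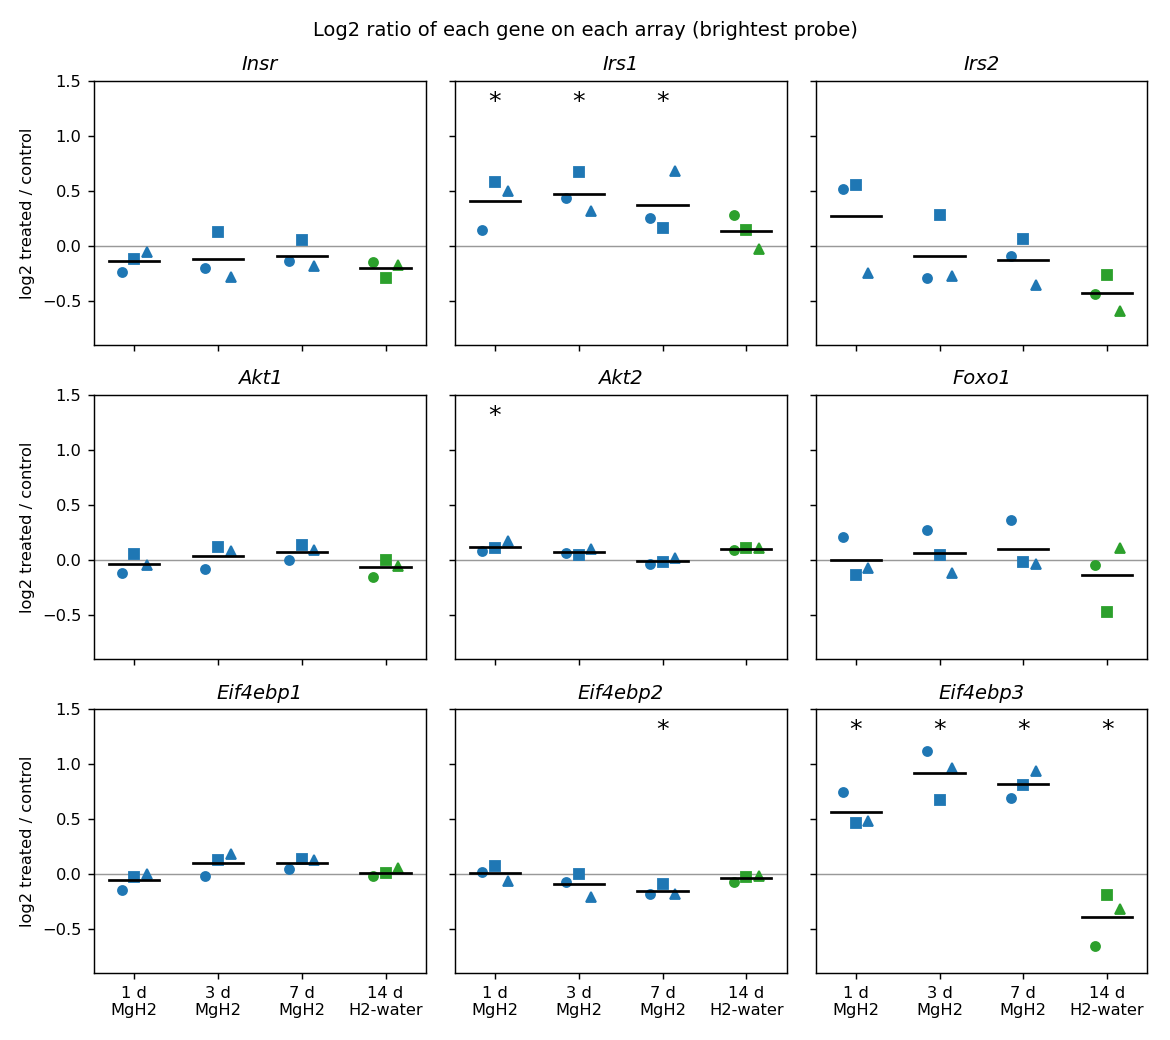
Log2 ratio of treated over control (y axis) of the brightest probe of 9 genes on each of the 12 arrays, by time and treatment (x axis). Circles, squares and triangles are replicates 1, 2 and 3, black lines are group means, and asterisks mark an adjusted P under 0.05 in limma. Eif4ebp3 lies above 0 on all 9 MgH2 arrays and below 0 on all 3 H2-water arrays.

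The receptor was measured by 3 probes that differed in sign. Insr is the tyrosine kinase at the head of the pathway. The brightest probe, A_52_P494514, had log2 ratios of -0.24, -0.12 and -0.059 at 1 day, -0.20, 0.13 and -0.29 at 3 days, -0.14, 0.055 and -0.18 at 7 days, and -0.14, -0.29 and -0.18 at 14 days. All 3 arrays were below 0 at 1 day and at 14 days, while 1 of 3 was above 0 at 3 and 7 days. Its mean was lowest at 14 days, at -0.20 ± 0.076 (SD, n = 3 arrays), with a limma adjusted P of 0.136. The probe A_55_P2173927 was instead above 0 on all 3 arrays at 1, 3 and 7 days, with means of 0.15, 0.17 and 0.18, and 0.026 at 14 days. The third probe, A_55_P2172566, lay between -0.16 and 0.18 on all arrays. It was above 0 on all arrays of 1 and 3 days and below 0 on all of 14 days. None of these means passed, and the 95% interval of the brightest probe at 14 days ran from -0.37 to -0.031.

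Irs1 and Irs2 couple the receptor to PI3-kinase, and Irs1 passed the test where Irs2 did not, a difference between genes that was not itself tested. The bright Irs1 probe, A_52_P175242, had log2 ratios of 0.15, 0.58 and 0.50 at 1 day, 0.44, 0.67 and 0.32 at 3 days, and 0.26, 0.17 and 0.68 at 7 days. All 9 MgH2 arrays were above 0. With H2-water the values were 0.28, 0.15 and -0.024. The means were 0.41 (1.33-fold, SE 0.11, limma adjusted P = 0.0489) at 1 day, 0.48 (1.39-fold, SE 0.11, adjusted P = 0.015) at 3 days and 0.37 (1.29-fold, SE 0.11, adjusted P = 0.0335) at 7 days. The mean at 14 days was 0.13 with an adjusted P of 0.53, and its difference from 7 days, -0.23 with a 95% interval from -0.59 to 0.12, did not pass. With the replicate number as a block, the adjusted P at 1 day was 0.0563. With the control pool as a random block, Irs1 was called at 3 days (0.0245) but not at 1 or 7 days (0.0739 and 0.0534). With arrays centred on the median of all spots it was likewise called at 3 days (0.0306) and not at 1 or 7 days (0.117 and 0.14). Leaving out a replicate number ended the call at 1 day for each number (adjusted P = 0.0544 to 0.246), at 3 days for numbers 1 and 2 (0.0506 and 0.105), and at 7 days for numbers 1 and 3 (0.0701 and 0.241).

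Part of the spread of Irs1 lay in the control pools. Its control level was 0.71, 0.59 and 0.66 for the pools numbered 1 at 1, 3 and 7 days, but 0.40, 0.28 and 0.25 for those numbered 3. The treated levels of the 9 MgH2 arrays ran from 0.55 to 1.06. The second Irs1 probe, A_52_P171212, was far dimmer, with signals of 25.6 to 61.4 units where the bright probe had 466 to 1162. Its means were -0.046, 0.16, -0.0018 and -0.34 at 1, 3, 7 and 14 days, and none passed the test. The rise of Irs1 therefore rests on 1 of its 2 probes.

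Irs2 had log2 ratios of 0.52, 0.55 and -0.24 at 1 day, so that 2 arrays were well above 0 and the third was below it. The values were -0.29, 0.29 and -0.27 at 3 days and -0.087, 0.060 and -0.35 at 7 days. At 14 days they were -0.44, -0.27 and -0.59, and all 3 H2-water pools lay below their controls. The mean there was -0.43 (0.742-fold, SE 0.16, 95% interval -0.79 to -0.069), with a limma adjusted P of 0.135. It did not pass in a comparison in which 8.86% of probes did. The means at the MgH2 times were 0.28, -0.093 and -0.13, none past the threshold. Its control levels were steady, at 0.39 to 0.68 over all 12 arrays, and the treated levels spread from -0.089 to 1.13. The treated pools at 1 day, numbered 1 and 2, were the highest of all.

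The Akt kinases, which pass the signal from PI3-kinase to FOXO factors and mTORC1, changed little. Akt1 had log2 ratios between -0.15 and 0.14 on all 12 arrays, and its 4 means, -0.034, 0.042, 0.077 and -0.066, all had adjusted P values of 0.285 or more. The brightest Akt2 probe, A_55_P2066518, had values of 0.081, 0.11 and 0.18 at 1 day, with a mean of 0.12 (1.089-fold, SE 0.031, limma adjusted P = 0.0341). The values were 0.065, 0.048 and 0.10 at 3 days, -0.033, -0.014 and 0.018 at 7 days, and 0.095, 0.11 and 0.11 at 14 days, with an adjusted P of 0.062 at 14 days. The arrays of a group lay close together, with an SD of 0.049 or less in every group. Leaving out any replicate number ended the call at 1 day, at adjusted P values of 0.0686, 0.128 and 0.163.

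The other Akt2 probes differed in direction. A_55_P2025228 had positive ratios on all 12 arrays, from 0.048 to 0.23, and passed at 1, 3 and 14 days with means of 0.16, 0.12 and 0.14. A_55_P2066523 was below 0 on 11 of 12 arrays and passed at 3 days (-0.20, adjusted P = 0.0489) and at 7 days (-0.29, SE 0.065, adjusted P = 0.00875). All 3 probes are assigned to the same RefSeq record. At 3 days one probe of Akt2 was called higher and another lower on the same arrays, so no single direction is given for this gene. Both of these calls were lost without any one replicate number, at adjusted P values of 0.0748 to 0.107 for A_55_P2025228 and 0.0684 to 0.251 for A_55_P2066523. The calls of A_55_P2025228 were also lost at 14 days without any one number (0.105 to 0.14) and at 1 day without numbers 2 and 3 (0.0633 and 0.0919), and that of A_55_P2066523 at 7 days without number 1 (0.0623). A_55_P2066523 was also the dimmest, at 233 to 439 units, where the other probes had 3878 to 7146.

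**Figure D3:**
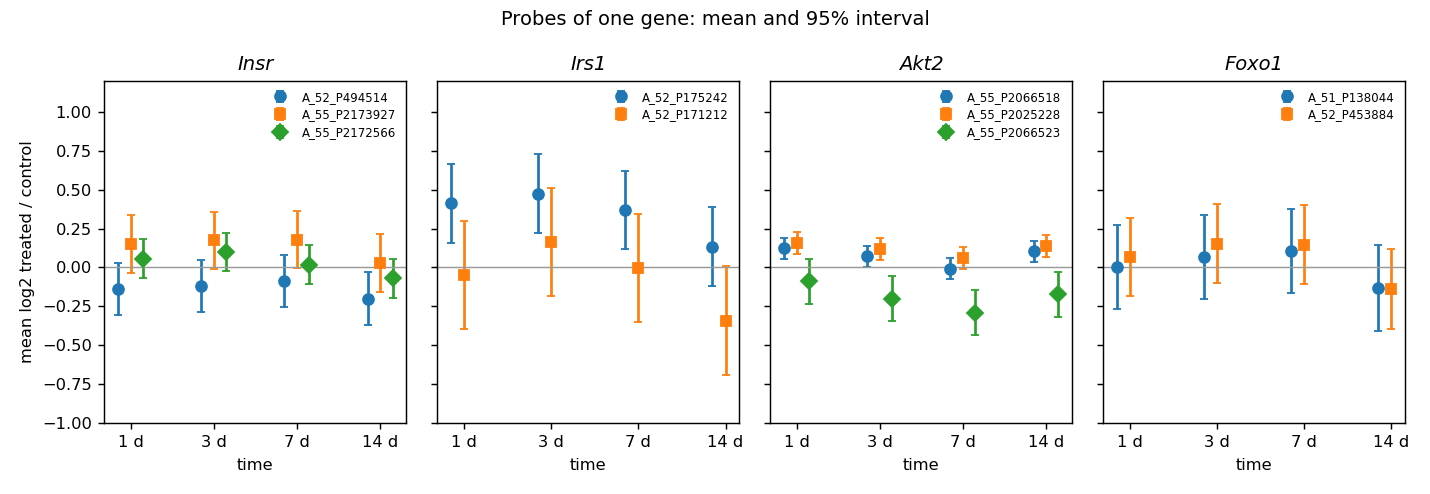
Mean log2 ratio of treated over control (y axis) with its 95% interval from limma for each probe of Insr, Irs1, Akt2 and Foxo1 at each time (x axis, 3 arrays each). The probes of Foxo1 lie together, whereas 2 Akt2 probes lie above 0 at 1 day, 3 days and 14 days and the other below 0 at all times.

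Foxo1 drives gluconeogenic genes when insulin is low, and its transcript did not move beyond its spread. Its brighter probe, A_51_P138044, had log2 ratios of 0.22, -0.13 and -0.072 at 1 day, 0.28, 0.051 and -0.12 at 3 days, 0.36, -0.019 and -0.032 at 7 days, and -0.043, -0.47 and 0.11 at 14 days. Replicate 1 gave the highest ratio on each MgH2 day, on the arrays whose control level was lowest. The treated levels of the 9 arrays ran from 2.45 to 2.73, a narrower range than the control levels, 2.29 to 2.74. The means were 0.0036, 0.070, 0.10 and -0.13, with adjusted P values of 0.558 or more. The second probe, A_52_P453884, had means of 0.067, 0.15, 0.15 and -0.14. At 14 days the 95% interval of the brighter probe ran from -0.41 to 0.14, so changes of that size could not be detected with 3 arrays. Foxo3, a second FOXO factor, was measured by a single probe that was above background in both channels on 1 of 3 arrays at 1 day, 2 at 3 days, none at 7 days and 1 at 14 days. Its signals were 10.2 to 20.6 units, and no ratio is given for it.

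The 4E-BP transcripts held the largest change among the members. The 4E-BPs bind eIF4E and hold back cap-dependent translation until mTORC1 phosphorylates them. Eif4ebp3 had log2 ratios of 0.75, 0.47 and 0.48 at 1 day, 1.12, 0.67 and 0.97 at 3 days, and 0.70, 0.82 and 0.94 at 7 days. With H2-water they were -0.65, -0.19 and -0.31. All 9 MgH2 arrays were above 0 and all 3 H2-water arrays below it. The share of all probes with such a split was not counted. The MgH2 arrays are not 9 independent comparisons, since control pools of one number were alike across days.

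The mean of Eif4ebp3 was 0.57 (1.48-fold, SE 0.10, limma adjusted P = 0.0105) at 1 day, 0.92 (1.90-fold, SE 0.10, adjusted P = 0.000409) at 3 days and 0.82 (1.76-fold, SE 0.10, adjusted P = 0.000512) at 7 days. At 14 days it was -0.38 (0.767-fold, SE 0.10, adjusted P = 0.0485). This last call was lost in each of the 3 fits that left out a replicate number, with adjusted P values of 0.282, 0.076 and 0.153, and that at 1 day without replicate 1 (0.0706). The call at 14 days was also lost with the replicate number as a block (0.0622), with the control pool as a random block (0.062) and with arrays centred on all spots (0.0612). Between 14 and 7 days the ratio differed by -1.20 (SE 0.14, 95% interval -1.52 to -0.88, adjusted P = 0.00694), in a comparison in which 6.58% of probes passed. A dye effect that is constant over the arrays cancels in this difference. Without replicate 3 it was not called, at an adjusted P of 0.0887. The differences among the MgH2 days, 0.35 for 3 against 1 day, 0.25 for 7 against 1 day and -0.10 for 7 against 3 days, did not pass.

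The channels of Eif4ebp3 show where its values lay. On the MgH2 arrays the control levels were nearly constant, from 2.09 to 2.24, and the treated levels ran from 2.61 to 3.32. On the H2-water arrays the treated levels were nearly constant, at 1.29, 1.19 and 1.18, and the control levels were 1.94, 1.38 and 1.49. The most negative ratio at 14 days, that of replicate 1, came from the array with the highest of those control levels. Control and treated levels were all lower at 14 days than on the MgH2 arrays, where slide and software differ as well. Eif4ebp3 has 1 probe, so its change was not checked by another.

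**Figure D4:**
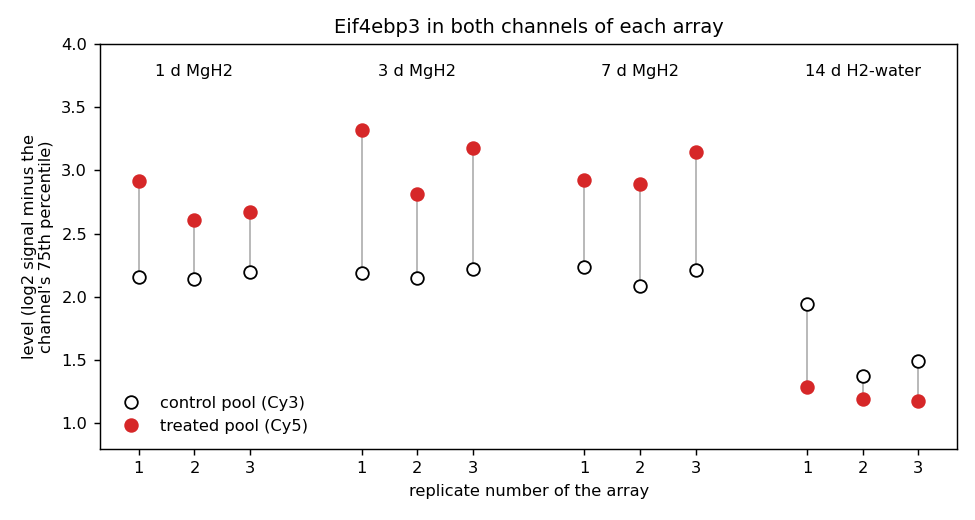
Level of Eif4ebp3 (y axis, log2 signal minus the 75th percentile of its channel) in the control pool (open) and the treated pool (red) of each of the 12 arrays, by replicate number (x axis) within time and treatment. The treated pool is above its control on all 9 MgH2 arrays, where the control levels lie between 2.09 and 2.24, and below it on the 3 H2-water arrays.

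Its paralogs did not share this pattern. Eif4ebp1, the family member best known as an mTORC1 substrate, had log2 ratios of -0.14, -0.024 and 0.0079 at 1 day, -0.013, 0.13 and 0.18 at 3 days, 0.050, 0.14 and 0.13 at 7 days, and -0.014, 0.011 and 0.054 at 14 days. Its means, -0.053, 0.10, 0.11 and 0.017, did not pass. With the replicate number as a block, Eif4ebp1 passed at 3 days (adjusted P = 0.0354), at 7 days (0.0249) and in the difference of 7 from 1 day (0.16, adjusted P = 0.0437). Eif4ebp2 had 0.021, 0.074 and -0.057 at 1 day, -0.071, 0.0020 and -0.20 at 3 days, and -0.18, -0.085 and -0.18 at 7 days. Its mean at 7 days was -0.15 (0.902-fold, SE 0.044, limma adjusted P = 0.0297), which was lost without replicate 1 (0.133) and without replicate 3 (0.143). At 14 days its values were -0.073, -0.027 and -0.010.

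Between days, 1 of 9 members passed for 14 against 7 days, Eif4ebp3. None passed for 3 against 1 day, where 0.0208% of all probes did, none for 7 against 1 day, where 6.94% did, and none for 7 against 3 days, where 0% did in limma. At an unadjusted P under 0.05 these comparisons had 2963, 4828 and 904 of 19227, 19175 and 19109 probes. The result for 7 against 1 day depended on how the likeness of the control pools was treated. With the control pool as a random block, Akt2 (-0.13, adjusted P = 0.0189), Eif4ebp1 (0.16, 0.0289) and Eif4ebp2 (-0.16, 0.029) passed, while the probes called overall rose from 1330 to 4030. With the replicate number as a block, Eif4ebp1 passed (0.0437), among 2571 probes. The largest of these differences after Eif4ebp3 were those of Irs2, which was lower by 0.37 at 3 days and by 0.40 at 7 days than at 1 day on the log2 scale. The 95% interval of the second ran from -0.91 to 0.10.

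The rest of the pathway was described by lists of genes written from general knowledge, with earlier results of these data known. Their counts are descriptions, and no set test was run. Over all probes tested, 5.15% were called higher and 4.23% lower at 1 day, 12.3% and 11.1% at 3 days, 15.3% and 14.2% at 7 days, and 4.95% and 3.91% at 14 days. The median log2 ratios of all probes tested lay between -0.0049 and 0.0059.

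The list of the insulin receptor and PI3-kinase arm had 27 genes besides the members, with 26, 24, 24 and 25 tested at 1, 3, 7 and 14 days. Called higher and lower were 1 and 1 at 1 day, 2 and 3 at 3 days, 2 and 2 at 7 days, and 1 and 0 at 14 days. Its medians were -0.015, 0.0031, 0.048 and -0.019. Pdpk1, the kinase that phosphorylates the activation loop of Akt, was higher at all times, by 0.27, 0.38, 0.32 and 0.13. At 14 days no gene of this list was called higher when any one replicate number was left out. None was with the control pool as a random block either. With the dyes fixed, a dye effect of the Pdpk1 probe and a treatment effect cannot be told apart. Ptpn1, the phosphatase that switches the receptor off, fell by 0.23 at 1 day and by 0.19 at 3 days. Pik3r3, a regulatory subunit of PI3-kinase, fell by 0.36 at 7 days, and it was 0.11 at 14 days. The adaptor Grb2 was higher at 3 and 7 days, by 0.16 and 0.24, and the adaptor Shc1 fell by 0.16 and by 0.18. Pik3ca, a catalytic subunit, fell by 0.33 at 3 days.

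In the list of Akt substrates and mTORC1, with 26 genes and 24 to 26 tested, 3 were called higher and 2 lower at 1 day, 4 and 2 at 3 days, 7 and 2 at 7 days, and 2 and 1 at 14 days. The 7 genes higher at 7 days became 3 to 4 when any one replicate number was left out, and 1 with arrays centred on the median of all spots. Its medians lay between -0.036 and 0.0071. Eif4e, the cap-binding protein that the 4E-BPs hold, was higher at all 4 times, by 0.28, 0.37, 0.32 and 0.21. Eif4g1, the scaffold that competes with the 4E-BPs for eIF4E, was lower at all 4 times, at -0.21, -0.22, -0.20 and -0.20. Rheb, the GTPase that activates mTORC1, was higher by 0.28, 0.26, 0.24 and 0.37. With the dyes fixed, a treatment effect common to all 4 groups and a dye effect of these probes cannot be told apart. Gsk3b, a kinase that Akt inhibits, was higher by 0.18, 0.24 and 0.20 at the MgH2 times, and was 0.066 at 14 days, which did not pass. Single calls at 3 or 7 days were those of Mtor, at -0.19, Deptor, at -0.18, Tsc1, at 0.34, Gsk3a, at 0.15, and Rps6kb2, at 0.17. Mapkap1, an mTORC2 subunit, was called at 1 day, at -0.20, and the ribosomal protein gene Rps6 at 3 and 7 days, at 0.11 and 0.12.

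Among the FOXO family and partners, 15 of 16 genes had a probe and 13 or 14 were tested. Called higher were 2, 3, 3 and 1 at 1, 3, 7 and 14 days, and none was called lower. Ppargc1a, the coactivator that works with Foxo1 on gluconeogenic promoters, rose by 0.58 at 3 days (SE 0.17, limma adjusted P = 0.033) and by 0.77 at 7 days (SE 0.17, adjusted P = 0.00768). It was 0.073 at 1 day and -0.0098 at 14 days. Usp7, a deubiquitinase that acts on FOXO factors, was higher by 0.24, 0.37, 0.45 and 0.23. At 14 days no gene of this list was called higher when any one replicate number was left out. With the dyes fixed, a dye effect of the Usp7 probe and a treatment effect cannot be told apart. Mdm2, a ubiquitin ligase, was higher by 0.32 and 0.25 at 3 and 7 days, and the acetyltransferase gene Crebbp by 0.24 at 1 day. The medians were 0.067, 0.096, 0.072 and -0.043.

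The FOXO targets showed more calls upward at 3 and 7 days of MgH2. Of 27 tested genes, 4 were called higher and 1 lower at 1 day, 11 and 2 at 3 days, and 11 and 2 at 7 days. At 14 days 3 of 26 were called higher and 1 lower. The medians were -0.026, 0.20, 0.20 and 0.0061. Without replicates 1, 2 and 3 in turn, 8, 5 and 8 were higher at 3 days and 6, 8 and 8 at 7 days, and with arrays centred on the median of all spots 7 and 4. Ppargc1a, named above, is also on this list. Pnpla2, the adipose triglyceride lipase, rose by 0.39 and 0.55 at 3 and 7 days, and Map1lc3b, an autophagosome protein, by 0.42 and 0.48. Pck1, which commits carbon to gluconeogenesis, was higher by 0.31 at both times and fell by 0.39 at 14 days (limma adjusted P = 0.016). It differed by -0.71 between 14 and 7 days. Other targets went the opposite way, such as Gadd45a, a stress-response gene, at -0.86 and -1.02 at 3 and 7 days. G6pc3, the ubiquitous glucose-6-phosphatase, was called lower at 1, 3 and 7 days, at -0.24, -0.24 and -0.34.

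At 1 day the targets called higher were Cat (0.22), Cdkn1b (0.18), Klf15 (0.34) and Map1lc3b (0.18), and at 14 days Cat (0.28), Cdkn1b (0.15) and Map1lc3b (0.21). Further FOXO targets called higher at 3 and 7 days were Bnip3l (0.22 and 0.25), Ccng2 (0.56 and 0.66), Cdkn1b (0.20 and 0.24), Cat (0.20 and 0.20) and Klf15 (0.40 and 0.36). Cdkn1a (0.87) and Sod2 (0.12) were called at 3 days, and Gabarapl1 (0.24) and Txnip (0.39) at 7 days. The classical hepatic targets whose promoter stretches are shown above were not among the calls. Igfbp1 had means of -0.13, 0.41, 0.36 and -0.65 at 1, 3, 7 and 14 days, with adjusted P values of 0.804, 0.28, 0.322 and 0.16. G6pc, the glucose-6-phosphatase of liver, had -0.18, -0.12, -0.11 and -0.55, with the lowest adjusted P, 0.0783, at 14 days. Hepatocyte markers were called higher for 2 and 4 of 8 at 3 and 7 days, and Kupffer cell and leukocyte markers lower for 3 and 4 of 8 with 1 and 0 higher. Their part in the list values was not tested.

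The insulin-induced genes, mostly enzymes of glycolysis and lipogenesis, moved the other way. None of 17 tested was called higher and 10 were called lower at both 3 and 7 days, with medians of -0.59 and -0.58. Without replicate 2 the count at 3 days was 4. Of 4 adipocyte markers, Cidec and Retn could be tested at these times, with medians of -0.89 and -1.007 and neither called, while the defining markers Adipoq and Plin1 were above background in both channels on no array. The summed level of the adipocyte markers ran, on the linear scale, from 0.934 to 3.58 in the control and from 1.05 to 1.77 in the treated pools. Of the stellate cell markers only Lrat was called lower, at -0.47 and -0.44, among 3 and 4 tested with medians of -0.25 and -0.15. The part of these cells in the values of the list was not tested. At 1 day 1 of 18 was called higher and none lower, with a median of -0.012, and at 14 days 1 and 0, with a median of 0.18. Srebf1, the gene of the lipogenic factor SREBP-1 that insulin induces, was at -0.60 and -0.86 at 3 and 7 days (limma adjusted P = 0.00753 and 0.00089), against 0.21 and 0.17 at 1 and 14 days. Its target Fasn, fatty acid synthase, was at -1.74 and -1.70, and Elovl6, which lengthens palmitate, at -1.39 and -1.70. Scd1 (-1.22 and -1.18), Pklr (-0.88 and -0.998), Acacb (-0.77 and -0.83), Acly (-0.52 and -0.53) and Me1 (-0.59 and -0.53) were also called lower at both times, as was Acaca.

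Mlxipl, the gene of the carbohydrate-responsive factor ChREBP, was called at all times but in different directions, at 0.33, -0.33, -0.42 and 0.40. At 14 days no gene of this list was called higher when any one replicate number was left out. At 1 day none was with arrays centred on the median of all spots or with the control pool as a random block. Of the 17 genes, 6 were called lower at 7 than at 1 day, where 3.68% of all probes were lower and 3.25% higher. Between 14 and 7 days 9 were called higher and none lower, where 3.44% of probes were higher and 3.14% lower. For the FOXO targets these comparisons had 3 higher and 0 lower of 27, and 1 higher and 3 lower of 26.

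**Figure D5:**
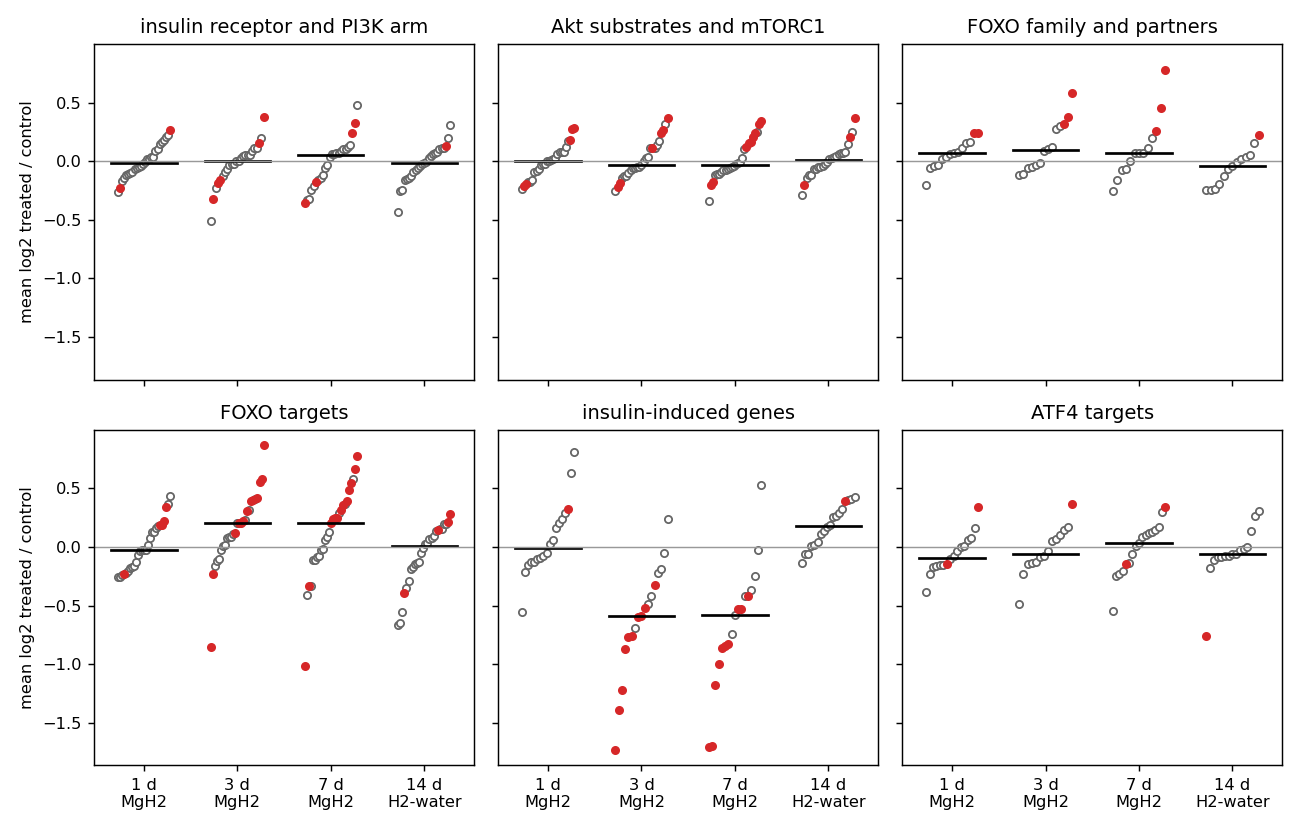
Mean log2 ratio of treated over control (y axis) of the tested genes of each list at each time (x axis, 3 arrays each). Red points were called in limma at an adjusted P under 0.05, open points were not, and black lines are medians. The insulin-induced genes have medians of -0.59 and -0.58 at 3 and 7 days and of 0.18 at 14 days.

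Targets of ATF4, a stress factor for which Eif4ebp1 is a textbook target, gave few calls. Of 20 genes, 14 to 17 were tested, with 1 called higher and 1 lower at 1 day, 1 and 0 at 3 days, 1 and 1 at 7 days, and 0 and 1 at 14 days. The gene called higher at each MgH2 time was Atf4 itself, which is on the list, by 0.34, 0.37 and 0.34. No other gene of the list was called higher. Asns, the asparagine synthetase gene, fell by 0.76 at 14 days (limma adjusted P = 0.0376). No gene of this list was called lower at 14 days when any one replicate number was left out. The other calls were Shmt2, at -0.14 at 1 day, and Atf5, at -0.14 at 7 days.

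The genes most like a member in their log2 ratios over the 12 arrays were found by Pearson's r. It was computed over 18414 probes above background on all 12 arrays, and named genes other than the member were then kept, 1 probe each. This is a description with no test, since control pools of one number were alike across the MgH2 days. For Irs2 these were Irak2 (0.914), Raver1 (0.908) and Dock1 (0.886). For Foxo1 they were Atxn10 (0.897), Jdp2 (0.894) and Ptp4a1 (0.889). For Eif4ebp1 they were Rabl3 (0.962), Polrmt (0.961) and Mmp14 (0.95). For Eif4ebp3, added after its values were seen, they were Supt6 (0.939), Sox1 (0.929) and Serinc3 (0.927). Without the 2 arrays farthest from the member's median, r ran from 0.768 (Jdp2 with Foxo1) to 0.938 (Rabl3 with Eif4ebp1).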

How the data were processed

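The data are scanner files of 12 two-color Agilent arrays. The authors' Feature Extraction software (version 10.10.1 per the labels; the file headers give 10.7.3.1 for the 14-day arrays and 10.10.1.1 for the others) corrected the background and normalized the dyes within each array, and these processed intensities were deposited. The deposited log10 ratio is computed from them, and the table of log2 values that the authors deposited equals it, with a largest difference of 1.4e-06. Raw median spot and background intensities were deposited too and served one alternative.

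Control and outlier-marked spots were left out, and log2 Cy5/Cy3 of the spots of a probe were averaged. The methods normalize by total intensity, and each channel's total is an alternative here. All arrays were fitted with limma 3.58.1 in R 4.3.3, a mean per group, and tested two-sided against 0 or between groups, with P values adjusted (Benjamini-Hochberg) over every probe that exceeded background in both channels of each array compared. An adjusted P under 0.05 counted as called. The fit was tested on simulated data in which the arrays were independent, so the likeness of control pools was not covered by it. The p-values measure the spread between pools of RNA. The number of arrays limits the precision.

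The members and lists were chosen with earlier results of these data known. Named are all members, list genes called at any time, and the closest genes by correlation. Values of some list genes are not reported here. Control pools were compared, the random block for them and centring on bright spots added, after the data were seen. Replicate numbers pair the arrays of 1, 3 and 7 days, since deviations from group means correlated for each of 9 pairs (r from 0.367 to 0.655). For 14 days r ran from -0.0414 to 0.287, and the main fit paired no arrays. The fit with the replicate number as a block gave number effects to all arrays, those of 14 days included. The alternatives are given in the closing section. The promoter sequences are from RefSeq. Protein sequences and a genome were not used here.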

Additional observations from a re-analysis of the deposited data

Results flagged for a closer look

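Eif4ebp3 (probe A_52_P278497) differed between H2-water and MgH2. Its log2 ratio was lower at 14 days than at 7 days by a difference of -1.202 (limma adjusted P = 0.00694), than at 3 days by -1.305 and than at 1 day by -0.95, and every array of 14 days lay below 0 while every array of the other days lay above it. The differences of 14 days from 1 and 3 days were taken up because the arrays were seen to lie on opposite sides of 0. In limma that from 3 days was called (adjusted P = 0.0106) and that from 1 day was not (0.0529). Chosen that way, they are descriptions, and these P values are not counted as support. How many of all probes split in this way was not counted.

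One Insr probe, A_55_P2172566, also lay below 0 on all arrays of 14 days and above 0 on all arrays of 1 and 3 days. Its differences, chosen in the same way, were -0.128 from 1 day and -0.171 from 3 days. Neither was called in limma (adjusted P = 0.554 and 0.251). With 3 arrays per group, single arrays were not examined for outliers.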

How the results depend on the processing

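The number of member genes called was 3, 2, 3 and 1 at 1, 3, 7 and 14 days, 1 for 14 against 7 days, and 0 in the other contrasts. At 1 day it was 1 with channels scaled by their totals, with arrays centred on the median of all spots (dim spots included), with no filter on dim probes and with the mean of the probes of a gene. It was 0 with only the 3 arrays compared in the fit, and 0 by the methods' t-test after adjustment, at all 4 times. With only the arrays compared it was 1 at 3 days, 1 at 7 days and 0 at 14 days. The calls over all probes fell with these counts, from 1846, 4543, 5747 and 1815 to 101, 292, 2177 and 502 with only the arrays compared, and to 66, 34, 73 and 52 by the adjusted t-test. With no filter it was 1 at 7 days and 0 at 14 days. At 14 days it was also 0 with centring on all spots, with the mean of the probes and with the control pool as a random block, 2 with the slide as a random block, and 3 by the methods' t-test unadjusted. Leaving out each replicate number gave 0 to 1 at 1 day, 1 to 2 at 3 days, 1 to 3 at 7 days, 0 at 14 days, and 0 to 1 for 14 against 7 days. In the contrasts, centring on all spots gave 3 for 14 against 7 days, where all calls rose from 1234 to 3840, and the pool block gave 3 for 7 against 1 day (Akt2, Eif4ebp1 and Eif4ebp2), where they rose from 1330 to 4030. The replicate block gave 2 at 14 days (Akt2 and Irs2, without Eif4ebp3), 1 for 7 against 1 day (Eif4ebp1) and 2 for 14 against 7 days (Akt1 and Eif4ebp3). This block also paired the 14-day arrays by number, a pairing that their correlations did not clearly show. No called value of a member reversed under any of these settings. Eif4ebp3 was called at 3 and 7 days in each alternative fit apart from the adjusted t-test, with log2 ratios of 0.82 to 1.05 at 3 days and 0.71 to 0.88 at 7 days. The cause of the other changes was not tested. With only the arrays compared, the FOXO targets had 0 and 7 genes higher, and the insulin-induced genes 1 and 7 lower, at 3 and 7 days. Within a slide, only 1 array of 3 days could be set against 3 of 1 day, and 2 of 7 days against 2 of 3 days. No probe of any gene was called in either, so the count of 0 members says nothing about them.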

Other observations

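The levels of several members in the control channel were lower on the 14-day arrays than on the others. Eif4ebp1 lay at 2.75 to 2.85 in the controls of H2-water and at 3.61 to 3.77 in those of MgH2. The values of the brighter Foxo1 probe were 1.52 to 1.83 and 2.29 to 2.74. The bright Irs1 probe went the other way, at 1.03 to 1.27 and 0.25 to 0.71, while Irs2 lay at 0.39 to 0.57 and 0.40 to 0.68. Slide, software version, vehicle and duration differ between these control pools and cannot be told apart.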
